A study of Mus musculus with 36 samples.

Results

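The Hoxd cluster on mouse chromosome 2 was followed with 8 peak lists, namely those of antibodies to CTCF and to MBD3 on days 0, 2, 4 and 6. The members are the 49 peaks, 39 of CTCF and 10 of MBD3, that overlapped a window from 100 kb before to 100 kb after the 9 Hoxd genes, chr2:74568225-74865142 on mm10. All lists together held 182783 peaks on chromosomes 1 to 19, X and Y. Merged by overlap, the 49 peaks made 15 sites, of which 14 had CTCF on at least 1 day.

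The peaks come from chromatin immunoprecipitation and sequencing (ChIP-seq) of mouse embryonic stem cells, described as wild type in the names of the lists. Each antibody was used on 3 samples a day, and input chromatin makes up the remaining 12 of the 36 samples. The cells were grown in serum replacement medium with leukaemia inhibitory factor on irradiated mouse embryonic fibroblasts, and the labels name neither the stem cell line nor what was done between day 0 and day 6. The feeder fibroblasts are a second cell type in the culture, and their share of the chromatin was not measured. The authors called peaks on the 3 replicates together, so no spread between replicates can be had and no value below carries a p-value. A place without a peak is one where no peak passed the authors' threshold, a q near 0.05, and not one shown to be free of the protein.

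Hox genes encode homeodomain transcription factors that set position along the body axis, and their order on the chromosome follows the order in which they are used from head to tail. The Hoxd cluster lies between large regulatory domains on either side, and contacts with each are used in turn in limbs, digits and trunk. CTCF is a zinc finger protein that halts loop extrusion by cohesin and marks borders between such domains, and several CTCF sites are known within Hox clusters. MBD3 is a subunit of NuRD, a complex that joins nucleosome remodelling to histone deacetylation.

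Of the 19 promoters of the window in a RefSeq table (250 bases before to 50 after a transcription start, GRCm38.p6, the assembly of mm10), 5 were overlapped by CTCF on day 0, and 2 of these on all 4 days. Those 2 belong to the noncoding gene Hoxd3os1, which runs antisense to Hoxd3, and to Hoxd10. The 5 also include the promoter of Hoxd9, which had CTCF on day 0 only, and the divergent promoters of Lnpk and the noncoding gene 4930445N08Rik. Over all 32851 promoters of the table, 14.8% were overlapped on day 0 and 4.77% on all 4 days. The 250 bases before the start are shown for the 3 genes within the cluster, each read 5′ to 3′ along the gene. For Hoxd3os1 (chr2:74716131-74716380, minus strand) the capitals mark the 12 letters that match the core of the CTCF motif. For Hoxd10 (chr2:74691641-74691890, plus strand) they span the CTCF summits of the 4 days. For Hoxd9 (chr2:74697513-74697762, plus strand) they are the 11 bases around the summit of day 0.
Hoxd3os1: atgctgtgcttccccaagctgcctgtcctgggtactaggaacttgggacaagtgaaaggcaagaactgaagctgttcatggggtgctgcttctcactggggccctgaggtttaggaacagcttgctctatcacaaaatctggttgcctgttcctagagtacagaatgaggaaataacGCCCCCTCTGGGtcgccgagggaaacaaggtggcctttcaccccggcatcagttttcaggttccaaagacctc
Hoxd10: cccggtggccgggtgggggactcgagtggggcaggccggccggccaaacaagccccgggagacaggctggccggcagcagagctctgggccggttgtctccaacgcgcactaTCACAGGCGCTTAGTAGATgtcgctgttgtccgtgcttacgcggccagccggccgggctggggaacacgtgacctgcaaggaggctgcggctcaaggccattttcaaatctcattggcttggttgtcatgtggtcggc
Hoxd9: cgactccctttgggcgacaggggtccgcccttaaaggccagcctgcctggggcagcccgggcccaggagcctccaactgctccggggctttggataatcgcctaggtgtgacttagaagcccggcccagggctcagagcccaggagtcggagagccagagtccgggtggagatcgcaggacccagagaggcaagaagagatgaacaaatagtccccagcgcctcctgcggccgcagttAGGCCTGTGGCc

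The core searched reads CC, any 3 bases, AG, any 2 bases, GGC, on either strand. The Hoxd3os1 match lay at chr2:74716192-74716203 with the core on the plus strand, inside the CTCF peak of each of the 4 days and 219 to 249 bp beyond its summits. The core was found in 3 of the 19 promoters of the window and in 8.61% of all promoters. The other 2 matches, at Hoxd3 and at a start within Hoxd11, were in promoters without any peak. The promoters of Hoxd10 and Hoxd9 held no match in the 300 bases of the table. Over all promoters, 37.6% of those with CTCF on all 4 days held the core, 15.1% of those with it on day 0 only and 6.00% of those without CTCF on any day. The table does not cover the CTCF summits of the Hoxd3os1 site, those inside Evx2 or those between Hoxd13 and Hoxd12. Sites that overlap no promoter are not covered either. The sequence at these summits was not analysed here, so whether a core lies under the Hoxd3os1 summits is not known.

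The 10 promoters of Hoxd genes, with 2 starts for Hoxd11, were rich in CG dinucleotides, with a median of 20.0 in 300 bases and a range of 4 to 37, against a median of 7 over all promoters. The 5 promoters of the window with CTCF on day 0 had 30 (4930445N08Rik), 25 (Lnpk), 22 (Hoxd10), 20 (Hoxd9) and 5 (Hoxd3os1) CG. The 14 promoters without CTCF on any day had 4 to 49, so the groups overlapped.

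CTCF sites were packed between Evx2 and Hoxd3 and absent further on. From the site inside Evx2 to the one at Hoxd3os1, 12 CTCF sites lay in 61.2 kb, with a median of 4733 bp between neighbours (1441 to 10483 bp), where the median over the genome was 17728 bp. This span was drawn from the sites themselves, which leaves out the wider gaps around it. Between all neighbouring CTCF sites of the window the median was 5307 bp. The 12 sites include weak ones of day 0 only. The flank before Hoxd13 held 5 CTCF sites, the stretch from Hoxd13 to Hoxd9 held 6, that from the end of Hoxd9 to the end of Hoxd8 held 2, and that from there to the end of Hoxd1 held 1. No peak of either antibody was found on any day in the last 148.8 kb of the window. That stretch holds Hoxd4, the microRNA gene Mir10b, the noncoding gene Haglr, Hoxd1 and the start of Mtx2, whose product takes part in protein import into mitochondria.

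The nearest CTCF sites outside the window lay far from its borders. Downstream the next site was chr2:74964351-74964742, 99.2 kb beyond the border, with folds of 4.98, 13.8, 13.2 and 12.7 on days 0, 2, 4 and 6. The stretch without CTCF was therefore 248.0 kb, a length reached by 2.96% of all distances between CTCF sites. Upstream the nearest site, chr2:74305818-74306038, was 262.2 kb before the border and had folds of 8.79, 7.07 and 8.01 on days 0, 4 and 6. The first site inside the window was that at the start of Lnpk, so the stretch on that side was 272.9 kb long, a length reached by 2.61% of distances. That length and share rest on a weak peak of day 0 only, with a fold of 2.37 and a -log10 q of 7.04. Without this peak the stretch would be longer.

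**Figure D1:**
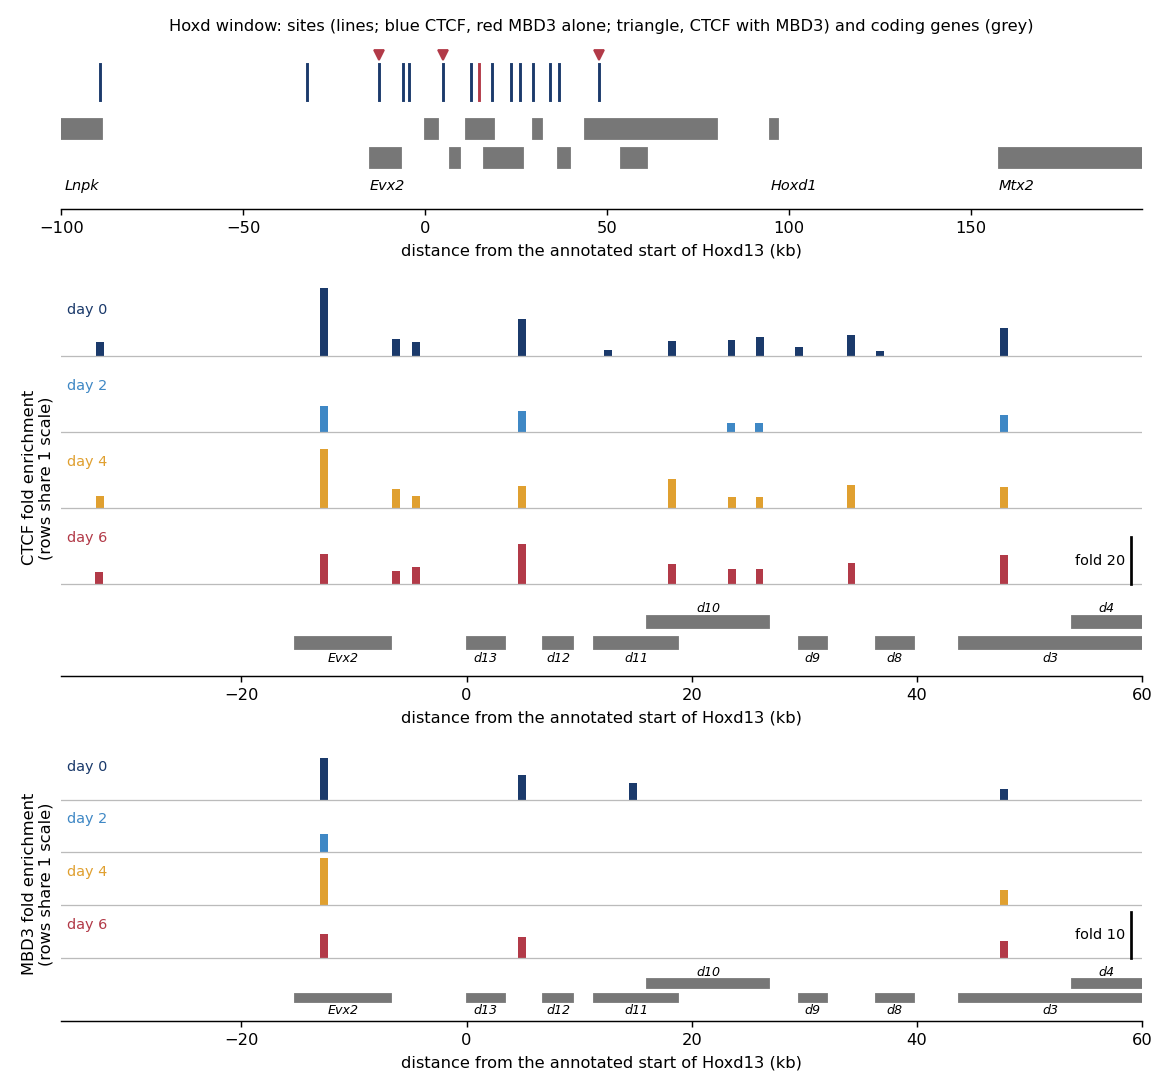
Sites and peaks of the Hoxd window by distance from the annotated start of Hoxd13 in kb. The upper panel shows the whole window with its 15 sites and coding genes, and the lower panels show the authors' fold enrichment at each summit (bar height, 1 scale per antibody) from before Evx2 to Hoxd4 by day. CTCF peaks end at the Hoxd3os1 site, and MBD3 peaks stand at 3 of the CTCF sites and at 1 place inside Hoxd11.

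The CTCF lists of days 0, 2, 4 and 6 had 14, 5, 10 and 10 peaks in the window. The whole lists held 47414, 28137, 36787 and 38109 peaks. In lists trimmed to the length of the shortest, by -log10 q, the counts were 9, 5, 8 and 9. Of the 14 sites, 5 had a peak on all 4 days (35.7%, exact 95% interval 12.8 to 64.9), where 47.3% of all CTCF sites did. Another 5 had a peak on days 0, 4 and 6 and none on day 2 (35.7%, 12.8 to 64.9), against 11.4% of all sites, and 4 had a peak on day 0 only (28.6%, 8.39 to 58.1), against 20.6%. All 14 sites had a peak on day 0, as did 88.3% of all CTCF sites. The intervals are binomial, cover counting error only and treat neighbouring sites as independent. The 14 sites are few, and whether the cluster differs from the genome was not tested.

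The sites of day 0 only had the lowest folds on day 0. Fold enrichment here is the authors' ratio of fragments at the summit to the expected background, and its percentile is the share of peaks of the same list with that fold or less. The sites of day 0 only had day 0 folds of 2.08 to 3.99 (percentiles 2.17 to 23.8), the sites missing on day 2 had 5.84 to 8.87 (42.6 to 66.4), and the sites of all 4 days had 6.65 to 28.7 (49.9 to 99.7). The first group did not overlap the others, and the latter groups overlapped. Over the whole day 0 list, 71.6% of the peaks up to the 25th percentile had no peak on a later day. A day 2 peak was found for 40.0% of the peaks of the next 25 percentiles, for 79.0% of those of the next and for 97.3% of the strongest.

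The site with the highest CTCF fold on days 0, 2 and 4 lay inside Evx2, a homeobox gene next to Hoxd13 that is used in developing limbs. It spanned chr2:74655205-74656315, with its summit 3982 bp inside the gene from its transcription start and 12.6 kb before Hoxd13. It was the only site of the window with both proteins on every day. CTCF folds were 28.7, 11.2, 24.9 and 12.7 on days 0, 2, 4 and 6, at the 99.7th, 96.9th, 99.2nd and 74.3rd percentile of their lists. By fold, days 0 and 4 were high and days 2 and 6 low. By percentile, only day 6 stood clearly lower.

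The fold of this site varied with the expected background as well as with the fragments. The number of fragments over the summit and the background were recovered from the authors' fold and p-value. The CTCF fragments were 526 (exact Poisson 95% interval 482 to 573), 307 (274 to 343), 236 (207 to 268) and 246 (216 to 279) in order of the days, highest on day 0. The background was 17.3, 26.4, 8.52 and 18.4 fragments on those days. Thus days 4 and 6 had fragment counts whose intervals overlap, and the background of day 6 was the higher. The intervals cover counting error only, in libraries that were amplified by PCR and pooled.

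Depth can be taken out with the genome-wide background level of each list, which follows the number and length of its fragments and in the CTCF lists was 2.87, 2.67, 1.83 and 1.87 fragments in order of the days. In units of that level, the CTCF signal inside Evx2 was 183, 115, 129 and 132, a range of 1.59 times where the fold ranged over 2.56 times. Day 0 remained highest and the other 3 days lay close together. The local background here was 6.04, 9.89, 4.66 and 9.86 times the level for CTCF and 6.13, 10.2, 4.88 and 9.42 times for MBD3. At this site it thus moved together in the lists of the same day. At the Hoxd3os1 site it did not. On days 0, 4 and 6 it was 9.86, 13.5 and 11.5 times there for CTCF and 11.6, 11.2 and 11.5 for MBD3. What makes the local background differ between days was not tested.

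MBD3 inside Evx2 had folds of 9.16, 3.99, 10.4 and 5.25 on days 0, 2, 4 and 6, at the 96.3rd, 43.9th, 96.3rd and 67.0th percentile of its lists. As for CTCF, the folds were high on days 0 and 4 and low on days 2 and 6. By percentile, MBD3 was lowest on day 2, where CTCF was lowest on day 6. The fragments were 93 (75.1 to 114), 92 (74.2 to 113), 107 (87.7 to 129) and 74 (58.1 to 92.9), and their intervals all overlapped. In units of the genome-wide level (1.51, 2.18, 1.93 and 1.41) they were 61.6 (49.7 to 75.5), 42.2 (34.0 to 51.8), 55.4 (45.4 to 67.0) and 52.5 (41.2 to 65.9), again with overlapping intervals. The MBD3 summits lay 0, 2, 11 and 1 bp from the CTCF summits of the same day. The day 2 peak had a background over 10 times the level, as had 22.9% of all MBD3 peaks of that day, and without such peaks the window had no MBD3 peak on day 2.

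The site inside Evx2 had more than 1 summit in some lists. On day 2 a second CTCF summit lay 294 bp from the first, with a fold of 4.03 and 106 fragments. On day 4 MBD3 had a second summit 403 bp from its first, with a fold of 2.54 and 26 fragments.

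The site between Hoxd13 and Hoxd12 had the most CTCF fragments on every day among the sites at the posterior genes, which belong to the paralogue groups related to Abdominal-B of the fly and pattern the limb and the end of the trunk. It lay at chr2:74672945-74673332, between genes, 1342 bp after Hoxd13, a gene needed for the digits, and 1681 bp before Hoxd12. Its CTCF folds were 15.5, 8.94, 9.60 and 17.0 on days 0, 2, 4 and 6, at the 92.9th, 90.4th, 58.3rd and 91.3rd percentile. Its fragments were 213 (185 to 244), 139 (117 to 164), 125 (104 to 149) and 157 (133 to 184). Relative to the level they were 74.2, 52.1, 68.3 and 84.0, highest on day 6 and lowest on day 2.

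MBD3 was found at this place on days 0 and 6, the days of the higher CTCF folds. The MBD3 folds were 5.42 and 4.60, with 44 fragments (32.0 to 59.1) and 29 (19.4 to 41.6), and the MBD3 summits lay 20 and 25 bp from those of CTCF. On days 2 and 4 no MBD3 peak passed the threshold here. Relative to the level, the CTCF intervals of days 0 and 4 overlapped (64.6 to 84.9 and 56.9 to 81.4). Over the whole CTCF lists, 3.80% of the peaks had MBD3 on day 2 and 20.6% on day 4. Whether MBD3 here goes with the strength of CTCF was not tested. A CTCF peak of the top 10 percentiles of the day 0 list had an MBD3 peak in 71.5% of cases.

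The Hoxd3os1 site was the last one before the stretch without peaks. It lay at chr2:74715743-74716387, within the outer ends of Hoxd3, a gene that shapes the first neck vertebrae, and over the start of Hoxd3os1, whose promoter is shown above. CTCF folds were 11.9, 7.41, 8.86 and 12.6, at the 82.5th, 79.4th, 52.5th and 73.6th percentile of the lists of days 0, 2, 4 and 6. The fragments, 349 (313 to 388), 230 (201 to 262), 226 (197 to 257) and 283 (251 to 318), came second to those of Evx2 on days 0, 2 and 4 and first on day 6. Relative to the level they were 122, 86.1, 123 and 151.

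The moderate fold of this site went with a high background. The background was 9.86, 11.3, 13.5 and 11.5 times the level in the CTCF lists, whose medians were 2.83 to 3.30. Backgrounds over 10 times the level occurred in 2.77% to 8.63% of the peaks of the CTCF lists. MBD3 had folds of 2.32, 3.24 and 3.67 here on days 0, 4 and 6, at the 3.23rd, 28.1st and 21.9th percentile, over backgrounds of 11.6, 11.2 and 11.5 times the level. Its fragments were 42 (30.3 to 56.8), 72 (56.3 to 90.7) and 62 (47.5 to 79.5). These were weak peaks in their lists, and no MBD3 peak was found on day 2. Without peaks of a background over 10 times the level, the site had CTCF on day 0 alone and MBD3 on no day. The MBD3 summits lay 46, 38 and 1 bp from those of CTCF.

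**Figure D2:**
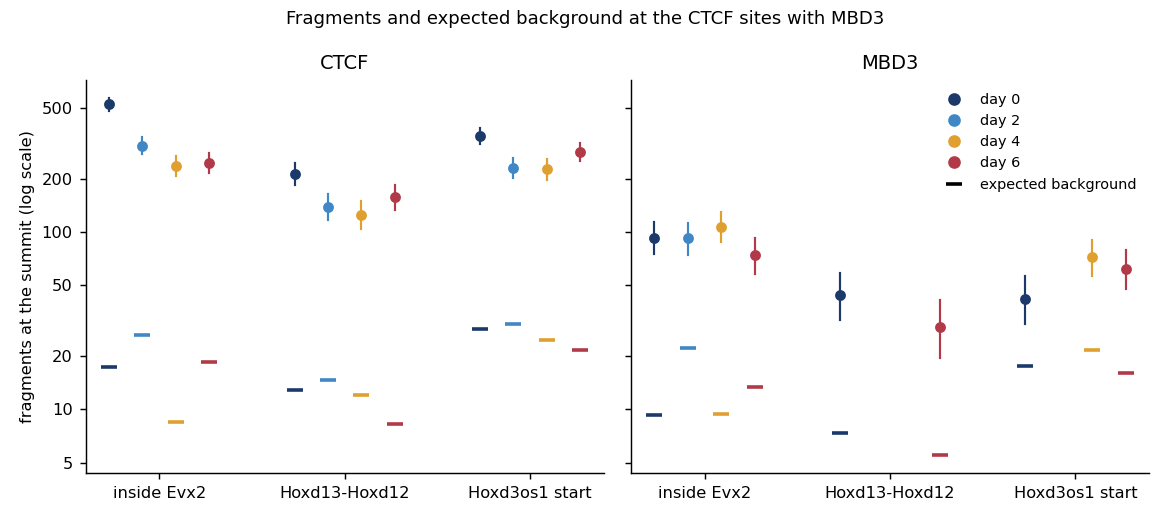
Fragments at the summit (points, with exact Poisson 95% intervals) and expected background (dashes) on a log scale at the 3 CTCF sites with MBD3, by day, for CTCF at left and MBD3 at right. The CTCF dash of Evx2 is lowest on day 4 (8.52) and highest on day 2 (26.4), and days without a peak have no point.

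The remaining sites of all 4 days were those inside Hoxd10, a gene used in the limb and in motor neurons of the lower spinal cord, and neither carried MBD3. The first, chr2:74691361-74691946, had its strongest summit 125 bp before the Hoxd10 start, with CTCF folds of 6.65, 3.72, 4.90 and 6.51 on days 0, 2, 4 and 6. The second, chr2:74694091-74694418, lay 2368 bp past that start and had folds of 7.87, 3.78, 4.82 and 6.33. Both were lowest on day 2. The fragments were 127, 79, 80 and 112 at the first and 93, 44, 44 and 53 at the second. Relative to the level, the signal was 44.3, 29.6, 43.7 and 59.9 at the first and 32.4, 16.5, 24.0 and 28.3 at the second. Summits moved by no more than 18 and 22 bp over the days.

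The 5 sites found on days 0, 4 and 6 surrounded these. One, chr2:74635499-74635758, lay between genes, 17231 bp from Evx2, with folds of 5.84, 5.26 and 5.39 on only 25, 14 and 17 fragments. A pair lay inside the noncoding gene Gm31790 between Evx2 and Hoxd13, at chr2:74661623-74662147 (folds 7.34, 7.93 and 5.80) and chr2:74663589-74663889 (folds 6.01, 5.05 and 7.47). Folds of these 3 sites differed between days by at most 1.48 times.

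The other sites of this kind lay among the posterior genes and before Hoxd8, a gene of the central part of the cluster. That at chr2:74686356-74686627, where the outer ends of Hoxd11 and Hoxd10 overlap, had folds of 6.44, 12.5 and 8.42 on days 0, 4 and 6. Its fragments were 39 (27.7 to 53.3), 59 (44.9 to 76.1) and 49 (36.3 to 64.8), or 13.6, 32.2 and 26.2 relative to the level. By that measure it was lower on day 0 than on the later days by 2.37 times at most, the widest range of the 10 CTCF sites found on more than 1 day. The intervals of the fragment counts overlapped. Relative to the level they were 9.66 to 18.6, 24.5 to 41.6 and 19.4 to 34.6, so that of day 0 lay below the others. The intervals cover counting error only. The site is singled out for its range of 2.37 times, each day is 1 pooled list, and a difference between days was not tested. The site at chr2:74702217-74702588, halfway between Hoxd9 and Hoxd8, had folds of 8.87, 9.77 and 9.12 and 66, 68 and 68 fragments.

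At Gm31790 the first site had a smaller CTCF summit beside the main one on days 4 and 6, 266 and 284 bp away, with folds of 3.19 and 4.01. None of the 5 sites carried MBD3 on any day. On day 2, no CTCF peak passed the threshold at any of them. In lists of equal length, 3 sites had this pattern.

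**Figure D3:**
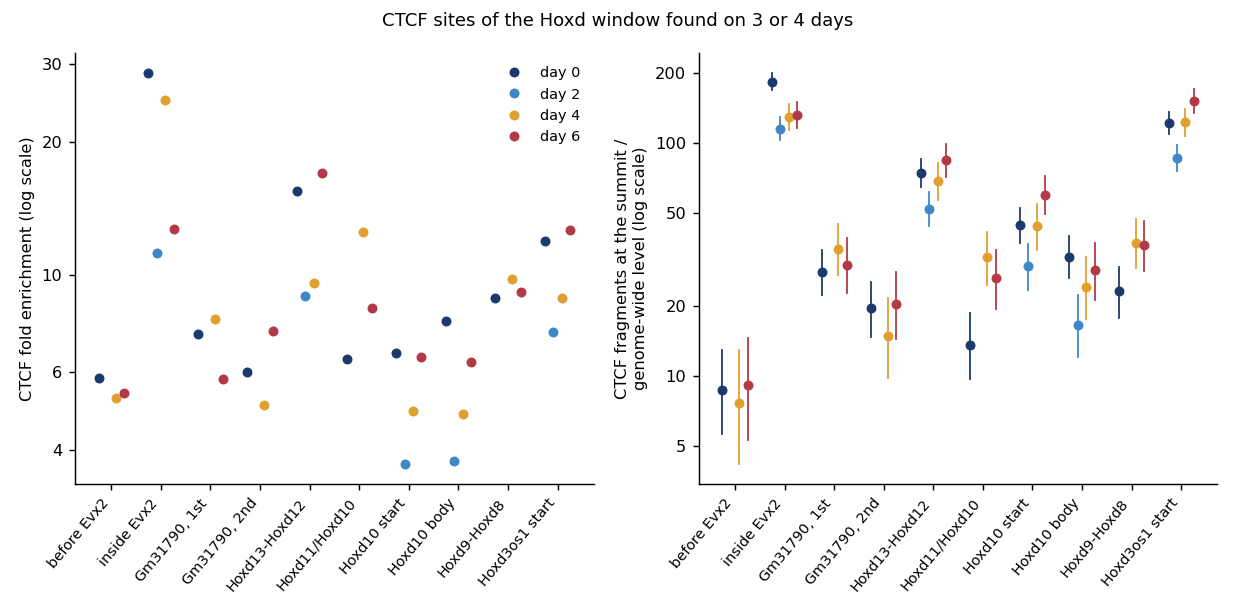
CTCF at the 10 sites found on 3 or 4 days, in order along the chromosome, with days in colour and log axes. The left panel gives fold enrichment and the right panel fragments at the summit relative to the genome-wide level of the list, with lines for the exact Poisson 95% interval of the fragments. Inside Evx2 the day 4 and day 6 points are apart at left (24.9 and 12.7) and close at right (129 and 132).

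The 4 sites of day 0 only were weak. They lay at the start of Lnpk, which encodes a protein of the endoplasmic reticulum (chr2:74578912-74579084, fold 2.37), inside Hoxd11, a gene of forearm and kidney development (chr2:74680734-74680931, 2.47), at the start of Hoxd9, which acts with Hoxd10 in limb and spinal cord (chr2:74697630-74697888, 3.99), and inside Hoxd8 (chr2:74704857-74705259, 2.08). The Hoxd9 summit was 7 bp from the start, within the sequence shown above. The Lnpk and Hoxd8 peaks had 62 and 39 fragments over backgrounds of 25.6 and 18.3, which are 8.90 and 6.36 times the level. Of the 4, only those at Lnpk and Hoxd9 overlapped a promoter of the table, as did 16.7% of all CTCF sites of day 0 only and 6.31% of those of all 4 days. With a -log10 q of 10 or more, 2 sites were found on day 0 only, but of the 4 only that at Hoxd9 (12.0) passed. The other was chr2:74635499-74635758, found on days 0, 4 and 6 in the full lists. Its -log10 q was 11.5 on day 0, and 6.29 and 7.59 on days 4 and 6 fell short. In lists of equal length 0 sites were found on day 0 only.

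The whole MBD3 lists of the same days held 10464, 1991, 9006 and 10875 peaks, so that of day 2 was by far the shortest. They had 4, 1, 2 and 3 peaks in the window, at 4 sites. Of these, 1 had a peak on all 4 days (4.90% of all MBD3 sites), 1 on days 0, 4 and 6 (16.6%), 1 on days 0 and 6 (8.90%) and 1 on day 0 only (20.1%). The last was the only MBD3 peak of the window without CTCF. It lay inside Hoxd11 at chr2:74682896-74683068, 659 bp past a start of the gene, with a fold of 3.69, a -log10 q of 2.74 and 13 fragments (6.92 to 22.2) over a background of 2.80. All other MBD3 peaks lay wholly inside a CTCF peak of the same day.

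MBD3 was found at 3 of 14, 1 of 5, 2 of 10 and 3 of 10 CTCF peaks of days 0, 2, 4 and 6. The shares over the whole CTCF lists were 19.5%, 3.80%, 20.6% and 26.1%, near those of the window on days 0, 4 and 6 (21.4%, 20.0% and 30.0%). On day 2 the 1 peak with MBD3 makes 20.0%, with an exact 95% interval of 0.505 to 71.6. On each day the CTCF peaks with MBD3 were among the 3 with the most CTCF fragments in the window. By fold this did not hold on day 4. The Hoxd3os1 peak, with MBD3, then had a CTCF fold of 8.86, and peaks without MBD3 reached 12.5. Over the whole day 0 list, MBD3 was found at 54.3% of the top 25 percentiles of CTCF fold and 4.45% of the lowest 25. Conversely, 3 of 4, 1 of 1, 2 of 2 and 3 of 3 MBD3 peaks had CTCF, where 88.9%, 53.7%, 84.3% and 91.8% of the whole MBD3 lists did.

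The windows of the other Hox clusters, drawn in the same way, give a scale for these counts. CTCF peaks per 100 kb were 4.72, 1.68, 3.37 and 3.37 at Hoxd on days 0, 2, 4 and 6, 4.26, 2.62, 3.27 and 3.27 at Hoxa, 7.49, 4.28, 5.62 and 6.15 at Hoxb, and 3.17, 1.9, 2.85 and 2.85 at Hoxc. All 4 windows had their fewest on day 2, as did the whole lists. CTCF sites of all 4 days numbered 5 of 14 at Hoxd, 8 of 13 at Hoxa, 16 of 30 at Hoxb and 6 of 13 at Hoxc. MBD3 sites of all 4 days numbered 1 of 4 at Hoxd and 0 of 9, 0 of 14 and 0 of 3 at Hoxa, Hoxb and Hoxc. The highest CTCF fold of day 0 was 28.7 at Hoxd, inside Evx2, and 13.3, 18.2 and 21.7 in the windows of Hoxa, Hoxb and Hoxc. On day 6 it was 17.0 at Hoxd and 20.3, 28.4 and 24.4 in those windows. These are counts and values of single lists, and differences between clusters were not tested.

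**Figure D4:**
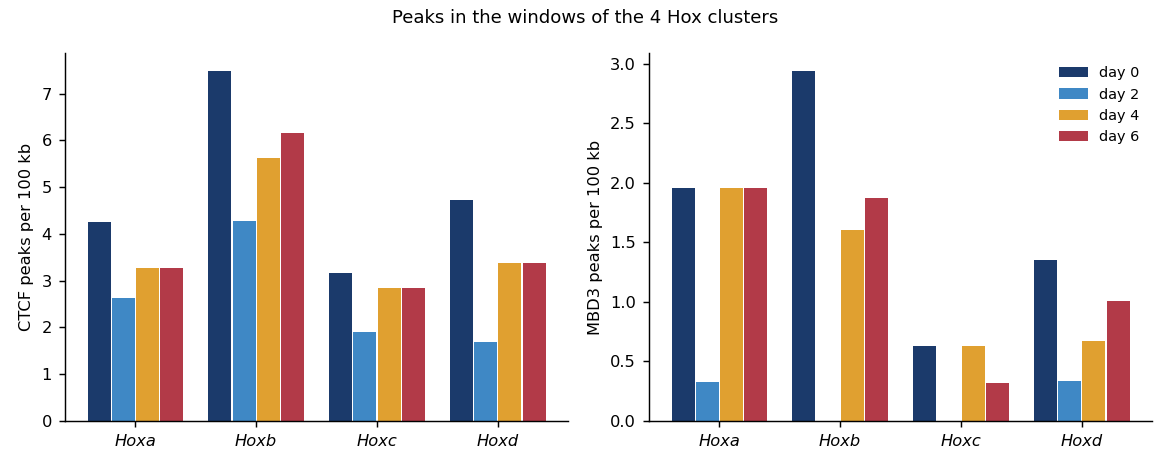
Peaks per 100 kb in the windows of the 4 Hox clusters (each from 100 kb before to 100 kb after its genes), for CTCF at left and MBD3 at right, with bars for days 0, 2, 4 and 6. Each window has its fewest CTCF peaks on day 2, and Hoxb and Hoxc have no MBD3 peak on that day.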

How the data were processed

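Per the submitters' processing notes, MACS2 2.1.2 and Bowtie2 2.3.4 were among the tools used, with build mm10. The deposited lists hold, for each peak, a fold enrichment (a ratio), a -log10 p and -log10 q, a score that is 10 times the -log10 q as a whole number, and a summit offset, all from the authors' peak caller. Per the peak names, the 3 replicates of an antibody and day were called together against a control, and the samples behind that control are not given in the sources used here.

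Summits listed for 1 interval were taken as 1 peak, represented by the summit with the highest -log10 q. Peaks overlapping by 1 bp or more formed a site. Coordinates are 1-based. Gene positions, from RefSeq for GRCm38.p6, have outer ends only, so exons and introns were not told apart, and starts and sequences came from a RefSeq promoter table, where all 9 Hoxd genes were found. Every gene of the window was considered for naming, and sites of all 4 days and sites with MBD3 were given with all values. Fragments and background were solved from the caller's formulas, (fragments + 1) / (background + 1) for fold and a Poisson tail for p, and matched within 0.003% of the -log10 p for 100% of each list to the nearest 0.1%. On 2000 simulated summits the right number was found for 100%, and 2.35% matched when fold and p were mixed. As genome-wide level of a list served the lowest background value that 0.5% or more of its peaks had. The members, lists and tests were chosen with earlier results of these data known. No model was fitted and no test was run, since each list is 1 pooled value. Alternatives were a minimum -log10 q of 10, lists trimmed to equal length by -log10 q (28137 peaks for CTCF, 1991 for MBD3), a flank of 50 kb or none, overlap of 50% of the shorter peak, summits within 100 bp and separate summits. The omission of peaks whose background exceeded 10 times the level was added after seeing the data. Overlaps were computed in Python 3.11.15 (numpy 2.4.6, scipy 1.17.1) and checked on simulated peaks against bedtools 2.31.1.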

Additional observations from a re-analysis of the deposited data

How the results depend on the processing

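No paired analysis was possible because the 3 replicates of each antibody and day were pooled before the peaks were called, and leaving out a replicate was not possible for the same reason. Depth per sample is not known from peak lists. Of 118 values of 18 counts under the alternatives, 91 stayed within 1.5 times the reported count and 27 did not. The flank of 50 kb, overlap of 50%, summits within 100 bp and separate summits moved none. With a -log10 q of 10 or more, MBD3 had 2 peaks on day 0, and 2 CTCF sites were found on day 0 only. In lists trimmed to equal length, CTCF had 9 peaks on day 0 and 9 sites, of which 3 were found on days 0, 4 and 6 and 0 on day 0 only, and MBD3 had 2, 1 and 1 peaks on days 0, 4 and 6 at 2 sites, with 1 CTCF peak carrying MBD3 on each of days 4 and 6. With no flank, which leaves out Evx2, CTCF had 9, 6 and 6 peaks on days 0, 4 and 6 and 9 sites, of which 2 were found on days 0, 4 and 6, MBD3 had 0 peaks on day 2 and 1 on day 4 and 0 sites of all 4 days, and 0 and 1 CTCF peaks carried MBD3 on days 2 and 4. Without peaks of a background over 10 times the level, MBD3 had 0 peaks on day 2 and 1 on day 4 and 0 sites of all 4 days, and 0 and 1 CTCF peaks carried MBD3 on those days.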
